A study of Mus musculus with 12 samples.

Results

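The genes described here are 9 transcripts that mark microglia, the resident macrophages of the brain, in their homeostatic state. They are P2ry12, P2ry13, Gpr34, Tmem119, Siglech, Selplg, Fcrls, Olfml3 and Sall1, and they were taken by gene symbol from a deposited table of 15584 genes. All 9 were in the table and all 9 passed a filter for low values, which kept 13759 genes that reached an FPKM of 1 in 3 or more of the 12 libraries. FPKM is the number of sequenced fragments per kilobase of transcript, scaled to the size of the library, so levels of different genes can be set side by side. The libraries came from mouse corpus callosum, the tract of myelinated axons between the cerebral hemispheres, and fell into 4 groups of 3. AHR CKO CPZ was tissue of mice without the aryl hydrocarbon receptor (AHR) in microglia that were in the cuprizone model, AHR CKO Ctrl was tissue of such mice under the control condition, and WT CPZ and WT Ctrl were the corresponding groups of wild-type mice. Cuprizone is a copper chelator that kills oligodendrocytes and strips the corpus callosum of myelin. AHR is a transcription factor that binds small ligands such as tryptophan metabolites. The sources used here name no Cre line, no cuprizone dose or duration and no strain, age or sex, and they do not say that the 3 libraries of a group were 3 animals. P-values therefore rest on a spread between samples that may be technical.

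Homeostatic microglia survey the tissue with fine processes, and the genes listed above are textbook markers of them. Such markers help to set microglia apart from blood monocytes and from macrophages at the borders of the brain, but Selplg is also a gene of blood leukocytes. The programme depends on the transcription factors PU.1 and SALL1 and on TGF-beta made within the brain. In mouse models of demyelination and neurodegeneration, microglia that gather at the damage are known to lower such genes while they raise a disease-associated set, Trem2, Apoe and Itgax among it. In whole tissue, fewer cells of a type and less RNA per cell cannot be told apart, and this holds for every level given here.

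The FPKM of a library added up to 447156 to 519470. The smallest steps between values put the depth at roughly 11400000 to 15000000 fragments, read from 7 to 24 genes a library within a window that was set after looking at the values and that itself confines the answer. On that scale Siglech, the lowest of the 9 genes, rested on about 183 to 391 fragments. Between 52 and 80 genes were listed at 0 in the AHR CKO libraries and 94 in WT CPZ replicate 2, whereas none was in the other 5 WT libraries. Ahr was listed at 1.48, 1.76 and 2.57 FPKM in AHR CKO CPZ, 1.79, 1.41 and 2.07 in AHR CKO Ctrl, 1.73, 1.85 and 2.01 in WT CPZ and 2.22, 1.48 and 1.65 in WT Ctrl. These groups overlapped, which does not check the labels, since other cells of the tissue also carry the transcript and the deleted exon is not given.

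The 9 genes lie in 7 places in the mouse genome (GRCm38, GENCODE M21). P2ry12, on chromosome 3 from 59216272 to 59262871, and P2ry13, from 59207892 to 59210882, are neighbours on the minus strand with 5389 bases between them. Both lie inside Med12l, which is transcribed from the opposite strand and shares 9 exonic bases with P2ry12. Gpr34, on chromosome X from 13632089 to 13640858, lies inside an intron of Cask on the opposite strand. Tmem119, on chromosome 5 from 113793729 to 113800516, and Selplg, from 113818536 to 113832644, are neighbours 18019 bases apart. Siglech lies on chromosome 7 from 55768178 to 55778925, Fcrls on chromosome 3 from 87250758 to 87263738, Olfml3 on chromosome 3 from 103722222 to 103738001 and Sall1 on chromosome 8 from 89027235 to 89044162. Whether the authors counted by strand is not given, so reads of Med12l and Cask could stand in the values of the genes inside them. Med12l averaged 4.36 ± 0.211 FPKM in AHR CKO CPZ, 4.61 ± 0.615 in AHR CKO Ctrl, 5.42 ± 0.664 in WT CPZ and 5.31 ± 0.461 in WT Ctrl (mean ± SD, n = 3 each). Cask averaged 9.10 ± 1.11 FPKM in AHR CKO CPZ, 9.81 ± 0.423 in AHR CKO Ctrl, 9.99 ± 0.919 in WT CPZ and 11.9 ± 0.501 in WT Ctrl. Neither passed the test in any of the 5 comparisons.

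RefSeq promoter windows (GRCm38.p6, 250 bases before to 50 after the start site) were at hand for 6 of the 9 genes, as 8 windows because Sall1 has 3 of them. They were searched on both strands for GAGGAAG, a core that PU.1 binds, for TNGCGTG, the core of the AHR response element, and for CAGACA, a SMAD core of TGF-beta signalling. Among all 32851 windows, 13.6% hold the first, 5.07% the second and 21.0% the third. The windows of P2ry13, P2ry12 and Fcrls are shown because P2ry13 and P2ry12 are neighbours of 1 receptor family and Fcrls had a larger cuprizone change than the other 8 genes. The sequences run from 5′ to 3′ along the strand of the gene, and capitals mark the matches of either strand, which do not overlap each other.
P2ry13, chr3:59210833-59211132, minus strand: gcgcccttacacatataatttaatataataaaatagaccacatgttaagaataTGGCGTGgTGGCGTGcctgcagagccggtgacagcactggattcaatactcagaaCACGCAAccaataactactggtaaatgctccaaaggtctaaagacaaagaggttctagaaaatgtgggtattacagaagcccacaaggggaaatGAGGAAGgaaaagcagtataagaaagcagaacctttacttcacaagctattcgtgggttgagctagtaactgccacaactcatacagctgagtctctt
P2ry12, chr3:59262936-59263235, minus strand: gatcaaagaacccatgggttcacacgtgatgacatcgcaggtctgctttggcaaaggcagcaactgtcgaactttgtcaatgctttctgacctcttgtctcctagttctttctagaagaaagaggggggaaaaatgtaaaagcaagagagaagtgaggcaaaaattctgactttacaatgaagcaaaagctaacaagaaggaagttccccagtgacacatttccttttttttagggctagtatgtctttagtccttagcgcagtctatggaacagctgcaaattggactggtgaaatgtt
Fcrls, chr3:87263475-87263774, minus strand: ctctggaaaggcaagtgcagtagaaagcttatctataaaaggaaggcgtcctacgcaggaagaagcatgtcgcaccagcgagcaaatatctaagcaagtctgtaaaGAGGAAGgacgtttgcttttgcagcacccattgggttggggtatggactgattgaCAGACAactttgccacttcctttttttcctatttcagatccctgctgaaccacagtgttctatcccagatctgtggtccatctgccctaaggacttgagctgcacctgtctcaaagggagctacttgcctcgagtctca
The P2ry13 window holds the AHR core 3 times, at -197 and -189 on the gene's strand and at -142 on the other, and GAGGAAG at -48, counted back from the start site. The Fcrls window holds GAGGAAG at -144 and CAGACA at -89. The P2ry12 window holds none of these letters, nor do those of Olfml3 and Sall1, and that of Siglech holds CAGACA at -75 on the other strand. A match is a description of these letters and not evidence of binding.

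Cuprizone divided the 9 genes. In AHR CKO tissue Fcrls rose 3.06-fold and Olfml3 2.15-fold as ratios of mean FPKM, and the other 7 genes did not pass the test. In WT tissue Fcrls rose 5.51-fold, Olfml3 2.93-fold, Gpr34 2.54-fold and Selplg 1.70-fold. P2ry12, P2ry13, Tmem119, Siglech and Sall1 did not pass in WT, with ratios between 0.893 and 1.17. These counts, 2 of 9 in AHR CKO and 4 of 9 in WT, stand beside a background of 7.22% of all tested genes called higher and 2.98% called lower in AHR CKO, and 9.08% called higher and 7.81% called lower in WT (limma, Benjamini-Hochberg adjusted p under 0.05). The median log2 change was 0.27 over the 9 genes and -0.01 over all genes tested in AHR CKO, and 0.21 and -0.04 in WT. All 6 calls held when any 1 of the 12 libraries was left out.

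The 3 receptors coupled to G proteins differed among themselves. P2ry12 encodes the ADP receptor that steers microglial processes towards injured cells. It stood at 11.4, 15.7 and 18.3 FPKM in AHR CKO CPZ, 20.8, 20.8 and 18.96 in AHR CKO Ctrl, 25.9, 16.9 and 22.8 in WT CPZ and 27.1, 23.9 and 22.5 in WT Ctrl. In AHR CKO every cuprizone library lay below every control library, but the log2 change of -0.42 did not pass (95% interval -0.78 to -0.05, adjusted p = 0.148). The WT groups overlapped, with a change of -0.17 (95% interval -0.54 to 0.19, adjusted p = 0.542).

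P2ry13, a second ADP receptor, stood at 6.20, 8.22 and 9.54 FPKM in AHR CKO CPZ, 6.89, 6.27 and 5.69 in AHR CKO Ctrl, 13.4, 9.13 and 9.94 in WT CPZ and 9.15, 8.84 and 9.89 in WT Ctrl. Cuprizone and control overlapped in both genotypes, whereas all AHR CKO Ctrl libraries lay below all WT Ctrl libraries. The cuprizone change was 0.29 in AHR CKO (95% interval -0.05 to 0.62, adjusted p = 0.283) and 0.18 in WT (95% interval -0.15 to 0.52, adjusted p = 0.471). Gpr34 encodes a receptor for lysophosphatidylserine, a lipid shed by dying cells. It stood at 10.7, 16.6 and 18.8 FPKM in AHR CKO CPZ, 9.35, 11.5 and 10.3 in AHR CKO Ctrl, 35.1, 23.5 and 30.2 in WT CPZ and 10.8, 12.02 and 12.1 in WT Ctrl. In AHR CKO the cuprizone and control libraries overlapped, as AHR CKO CPZ replicate 1 stood among the controls, and the change was 0.49 (adjusted p = 0.119). Without that library it was 0.72 (adjusted p = 0.0112), the exception among 12 such omissions. The WT CPZ libraries lay above all others, and the cuprizone change in WT was 1.26 ± 0.183 (SE, adjusted p = 4.51e-04).

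Of the surface proteins, Tmem119 is a transmembrane protein of uncertain role that serves as a microglial marker. It stood at 16.6, 14.8 and 16.9 FPKM in AHR CKO CPZ, 15.2, 15.7 and 16.8 in AHR CKO Ctrl, 23.4, 12.6 and 17.3 in WT CPZ and 19.4, 18.5 and 14.6 in WT Ctrl. All 4 groups overlapped, and the log2 changes in the 4 comparisons of groups lay between -0.13 and 0.02. Siglech, which belongs to a family of lectins named for binding sialic acid, was the lowest of the 9 genes, at 3.93, 5.17 and 5.25 FPKM in AHR CKO CPZ, 5.69, 4.81 and 4.95 in AHR CKO Ctrl, 8.63, 5.27 and 7.80 in WT CPZ and 5.50, 7.25 and 6.11 in WT Ctrl. Cuprizone and control overlapped in both genotypes, with log2 changes of -0.09 in AHR CKO (95% interval -0.45 to 0.26, adjusted p = 0.771) and 0.16 in WT (95% interval -0.19 to 0.51, adjusted p = 0.563).

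Selplg encodes PSGL-1, the ligand by which leukocytes hold on to selectins. It stood at 14.5, 19.9 and 22.7 FPKM in AHR CKO CPZ, 13.9, 15.3 and 16.997 in AHR CKO Ctrl, 30.2, 20.6 and 23.5 in WT CPZ and 15.8, 14.7 and 13.1 in WT Ctrl. The AHR CKO groups overlapped, with a log2 change of 0.27 (adjusted p = 0.352), whereas WT CPZ lay above WT Ctrl throughout, by 0.71 ± 0.164 (SE, adjusted p = 0.00969). Fcrls is a mouse Fc receptor-like protein that microglia carry and that has no assigned ligand. It stood at 26.7, 36.3 and 46.7 FPKM in AHR CKO CPZ, 10.7, 13.5 and 11.6 in AHR CKO Ctrl, 91.3, 62.2 and 59.5 in WT CPZ and 13.6, 13.3 and 11.7 in WT Ctrl. Every AHR CKO CPZ library lay below every WT CPZ library and above every control library, while the controls of the genotypes overlapped. The cuprizone change was 1.51 ± 0.193 in AHR CKO (adjusted p = 3.17e-04) and 2.35 ± 0.193 in WT (adjusted p = 1.00e-05).

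Olfml3 encodes a secreted olfactomedin-like protein. It stood at 21.97, 30.8 and 38.4 FPKM in AHR CKO CPZ, 14.3, 13.1 and 14.98 in AHR CKO Ctrl, 50.6, 30.1 and 41.1 in WT CPZ and 13.8, 14.9 and 12.9 in WT Ctrl. Cuprizone lay above control in both genotypes, and the cuprizone libraries of the genotypes overlapped. The change was 1.02 ± 0.194 in AHR CKO (adjusted p = 0.00479) and 1.46 ± 0.194 in WT (adjusted p = 2.23e-04). Sall1, the zinc finger factor that holds microglia in their homeostatic identity, stood at 7.05, 9.35 and 9.77 FPKM in AHR CKO CPZ, 10.6, 7.79 and 7.52 in AHR CKO Ctrl, 15.96, 12.9 and 14.1 in WT CPZ and 13.1, 12.9 and 10.7 in WT Ctrl. Here every AHR CKO library lay below every WT library of the same treatment, while the treatments overlapped within each genotype. In control tissue the genotypes nearly met, at 10.61 FPKM in the highest AHR CKO library and 10.67 in the lowest WT library. The test between them did not pass there (adjusted p = 0.0755, limma). The cuprizone change was 0.02 in AHR CKO (adjusted p = 0.965) and 0.21 in WT (adjusted p = 0.377).

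**Figure D1:**
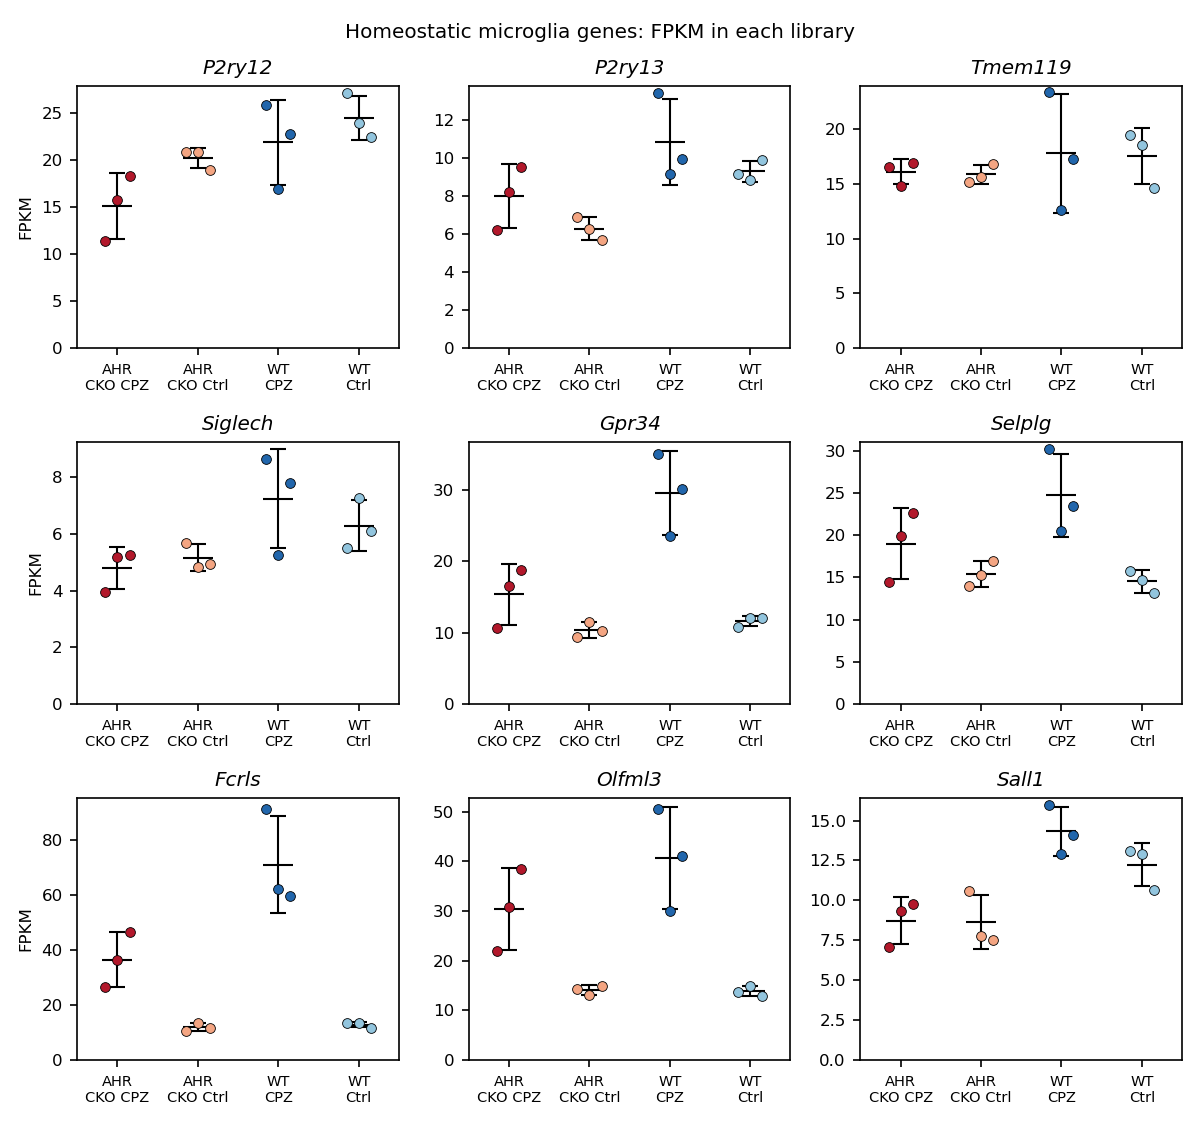
FPKM of the 9 genes (1 panel each, linear axis from 0) in the 3 libraries of AHR CKO CPZ, AHR CKO Ctrl, WT CPZ and WT Ctrl; points are libraries, and bars are the group mean with its SD. Fcrls, Olfml3, Gpr34 and Selplg are highest in WT CPZ, Tmem119 is level across groups, and the mean of Sall1 is lower in AHR CKO under both treatments, with control libraries that nearly meet.

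Whether the cuprizone effect differed between genotypes was tested as an interaction, and none of the 9 genes passed, against 0.0145% of tested genes called higher and 0.0218% called lower (limma). At an unadjusted p under 0.05 there were 2 of the 9, beside 1316 of all 13759 tested genes (limma). These 2 were Fcrls with a difference of -0.84 (adjusted p = 0.338) and Gpr34 with -0.76 (adjusted p = 0.361).

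**Figure D2:**
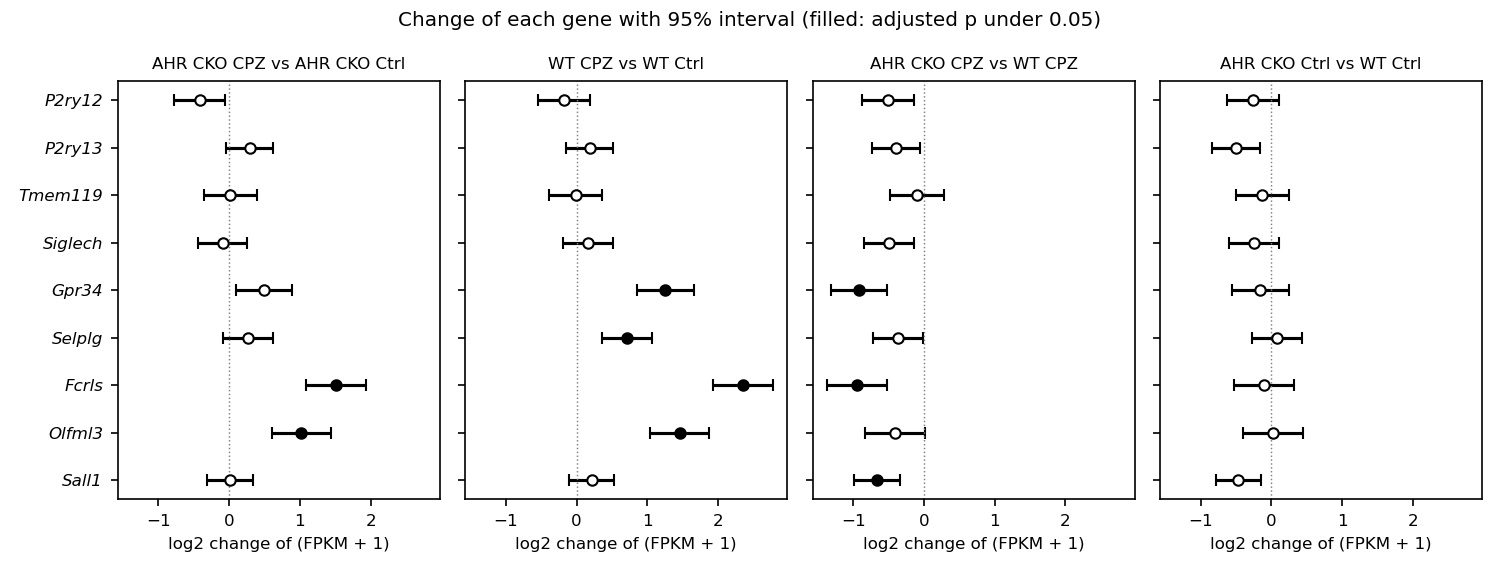
Log2 change of (FPKM + 1) of the 9 genes (points) with its 95% interval from limma (bars) in the 4 comparisons of groups; filled points have an adjusted p under 0.05. Filled points lie to the right for 2 genes in AHR CKO and 4 in WT under cuprizone, to the left for 3 genes in AHR CKO CPZ against WT CPZ, and there is none in AHR CKO Ctrl against WT Ctrl.

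Under cuprizone, the mean of each of the 9 genes was lower in AHR CKO than in WT tissue, and 3 genes passed the test. Fcrls averaged 36.5 ± 10.002 FPKM in AHR CKO CPZ and 70.99 ± 17.6 in WT CPZ (mean ± SD, n = 3 each, log2 change -0.95, adjusted p = 0.00993). Gpr34 averaged 15.4 ± 4.22 and 29.6 ± 5.83 in the same groups (-0.92, adjusted p = 0.00954). Sall1 averaged 8.72 ± 1.46 in AHR CKO CPZ and 14.3 ± 1.54 in WT CPZ (-0.66, adjusted p = 0.0131). The background in this comparison was 9.14% of tested genes called higher and 10.8% called lower, and the median log2 change was -0.49 over the 9 genes against 0.00 over all.

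Of the others, Siglech (-0.49, adjusted p = 0.0506) and P2ry12 (-0.51, adjusted p = 0.0517) stood just short of the threshold. Both passed when the filter was a mean FPKM of at least 5, and under TPM or median-of-ratios scaling, which gave 5 lower genes each. As deposited, 2747 of all tested genes were called in this comparison, 45.8% of them higher. Under TPM 2955 were called, 21.2% of them higher, and the median log2 change of all genes moved by -0.13. Under median-of-ratios scaling 2767 were called, 44.5% of them higher. Siglech also passed under quantile normalization (adjusted p = 0.0469), which gave 4. The call of Sall1 was lost without AHR CKO CPZ replicate 1 (adjusted p = 0.0572) or without WT CPZ replicate 1 (adjusted p = 0.0504). The number of called genes reached 6 without AHR CKO CPZ replicate 3 or without WT CPZ replicate 2. WT CPZ replicate 2 was the WT library that had listed zeros as the AHR CKO libraries did. In it Fcrls, Gpr34, Sall1 and Siglech stood above all 3 AHR CKO CPZ libraries, P2ry12, P2ry13, Selplg and Olfml3 stood among them and Tmem119 stood below them. The part of the zeros in these results was not tested.

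Transcript length moved with genotype across the whole table: with genes divided by length into 3 nearly equal classes, the median log2 change between AHR CKO CPZ and WT CPZ was 0.219 in the shortest class and -0.209 in the longest. Between AHR CKO Ctrl and WT Ctrl these medians were 0.129 and -0.186. Sall1 and Olfml3 belong to the longest class and the other 7 genes to the shortest. After a smooth trend on length and GC content was removed from each library, a correction added after the data had been seen, the changes were -1.05 for Fcrls (adjusted p = 0.0111), -0.95 for Gpr34 (adjusted p = 0.0095) and -0.54 for Sall1 (adjusted p = 0.0281). Siglech passed as well (-0.55, adjusted p = 0.0426), which made 4 lower genes, beside 985 of 13123 genes called in either direction.

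In control tissue none of the 9 genes passed between AHR CKO and WT (limma), against 1.42% of tested genes called higher and 4.76% called lower, and the median log2 change was -0.16 against -0.03 over all. At an unadjusted p under 0.05 there were 2 of the 9, beside 3798 of all 13759 tested genes (limma), so such a count does not set the 9 genes apart. P2ry13 averaged 6.28 ± 0.599 FPKM in AHR CKO Ctrl and 9.30 ± 0.541 in WT Ctrl (log2 change -0.50, 95% interval -0.84 to -0.17, adjusted p = 0.0700). Sall1 averaged 8.64 ± 1.71 and 12.2 ± 1.35 in the same groups (-0.47, 95% interval -0.79 to -0.14, adjusted p = 0.0755). Both passed without AHR CKO CPZ replicate 1 (adjusted p = 0.0377 for P2ry13 and 0.047 for Sall1), a library outside this comparison that enters through the shared spread, and Sall1 also passed without AHR CKO Ctrl replicate 1 (adjusted p = 0.043). The comparisons described so far share groups with each other, so their results are not independent.

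Transcripts shared by microglia and other macrophages rose under cuprizone. The 6 reference genes Csf1r, Itgam, Ptprc, Spi1, Laptm5 and Aif1 had a geometric mean of 15.7, 24.7 and 29.98 FPKM in AHR CKO CPZ, 7.77, 6.82 and 7.85 in AHR CKO Ctrl, 41.9, 27.1 and 32.7 in WT CPZ and 8.15, 7.66 and 7.72 in WT Ctrl. With cuprizone 5 of the 6 rose in AHR CKO, where Itgam did not pass (adjusted p = 0.0508), with a median log2 change of 1.47 over the 6, and all 6 rose in WT, with a median of 1.95. In AHR CKO CPZ against WT CPZ, 3 of the 6 were lower, Csf1r (-0.71, adjusted p = 0.0395), Ptprc (-0.78, adjusted p = 0.0395) and Itgam (-0.76, adjusted p = 0.0287). The reference was lowest in replicate 1 among AHR CKO CPZ and in replicate 2 among WT CPZ, and so were 7 of the 9 genes, all but Tmem119 and Fcrls. The part of these libraries in the results was not tested beyond leaving each out. Since these 6 genes may themselves change per cell, a ratio to them shows unequal change and not the content of a cell.

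Set against that reference in the same library, 8 of the 9 genes were lower under cuprizone in WT and 1, Fcrls, was higher. The reference itself rose, from a group mean of 7.48 to 23.4 FPKM in AHR CKO and from 7.85 to 33.9 in WT. Over all tested genes the median log2 change of level was -0.01 in AHR CKO and -0.04 in WT. A gene of unchanged level, in any cell type, would therefore also be lower on this scale. The share of all tested genes that were lower on it was not computed. Against C1qa, C1qb and C1qc the difference of Fcrls turned to -0.11 in WT. In AHR CKO its difference from the 6-gene reference was -0.02, with cuprizone and control libraries overlapping. P2ry12 had log2 ratios of -0.46, -0.65 and -0.72 in AHR CKO CPZ, 1.42, 1.61 and 1.27 in AHR CKO Ctrl, -0.70, -0.68 and -0.52 in WT CPZ and 1.73, 1.64 and 1.54 in WT Ctrl. The cuprizone libraries were far below the controls in both genotypes, and the libraries of the genotypes overlapped. The difference for P2ry12 was -2.04 in AHR CKO and -2.27 in WT, so its ratio to the reference was 4.12-fold and 4.82-fold lower under cuprizone. The same difference in WT was -2.10 for Tmem119, -1.91 for Siglech, -1.89 for P2ry13 and -1.86 for Sall1, and these 5 genes had no called change of their own level. Among the genes that rose, it was -1.34 for Selplg, -0.76 for Gpr34, -0.57 for Olfml3 and 0.35 for Fcrls. The median over the 9 genes was -1.32 in AHR CKO and -1.86 in WT, and the size followed the choice of reference: -0.82 and -1.34 against Csf1r alone, and -1.91 and -2.32 against C1qa, C1qb and C1qc, which encode the chains of complement C1q. These ratios were not tested.

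Between genotypes under cuprizone, the median difference in log2 ratio was 0.02 over the 9 genes, with 5 higher and 4 lower, beside a median of -0.49 for their levels. P2ry12, P2ry13, Siglech, Selplg, Olfml3 and Sall1 overlapped between the genotypes on this scale. Gpr34 had log2 ratios of -0.55, -0.57 and -0.67 in AHR CKO CPZ and -0.26, -0.21 and -0.12 in WT CPZ. Fcrls had log2 ratios of 0.77, 0.56 and 0.64 in AHR CKO CPZ and 1.12, 1.20 and 0.86 in WT CPZ. For both, every AHR CKO CPZ library lay below every WT CPZ library, with a mean difference of -0.41 for Gpr34 and -0.41 for Fcrls. Tmem119 had log2 ratios of 0.08, -0.74 and -0.83 in AHR CKO CPZ, all above the -0.84, -1.10 and -0.92 in WT CPZ, though AHR CKO CPZ replicate 1 stood apart from the other libraries and the rest nearly met. The median turned to -0.28 when C1qa, C1qb and C1qc were the reference. In control tissue, P2ry13 (-0.50) and Sall1 (-0.44) were the genes whose AHR CKO libraries all lay below the WT libraries on the ratio scale. The share of all tested genes split in this way between the genotypes on the ratio scale, under either treatment, was not computed.

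**Figure D3:**
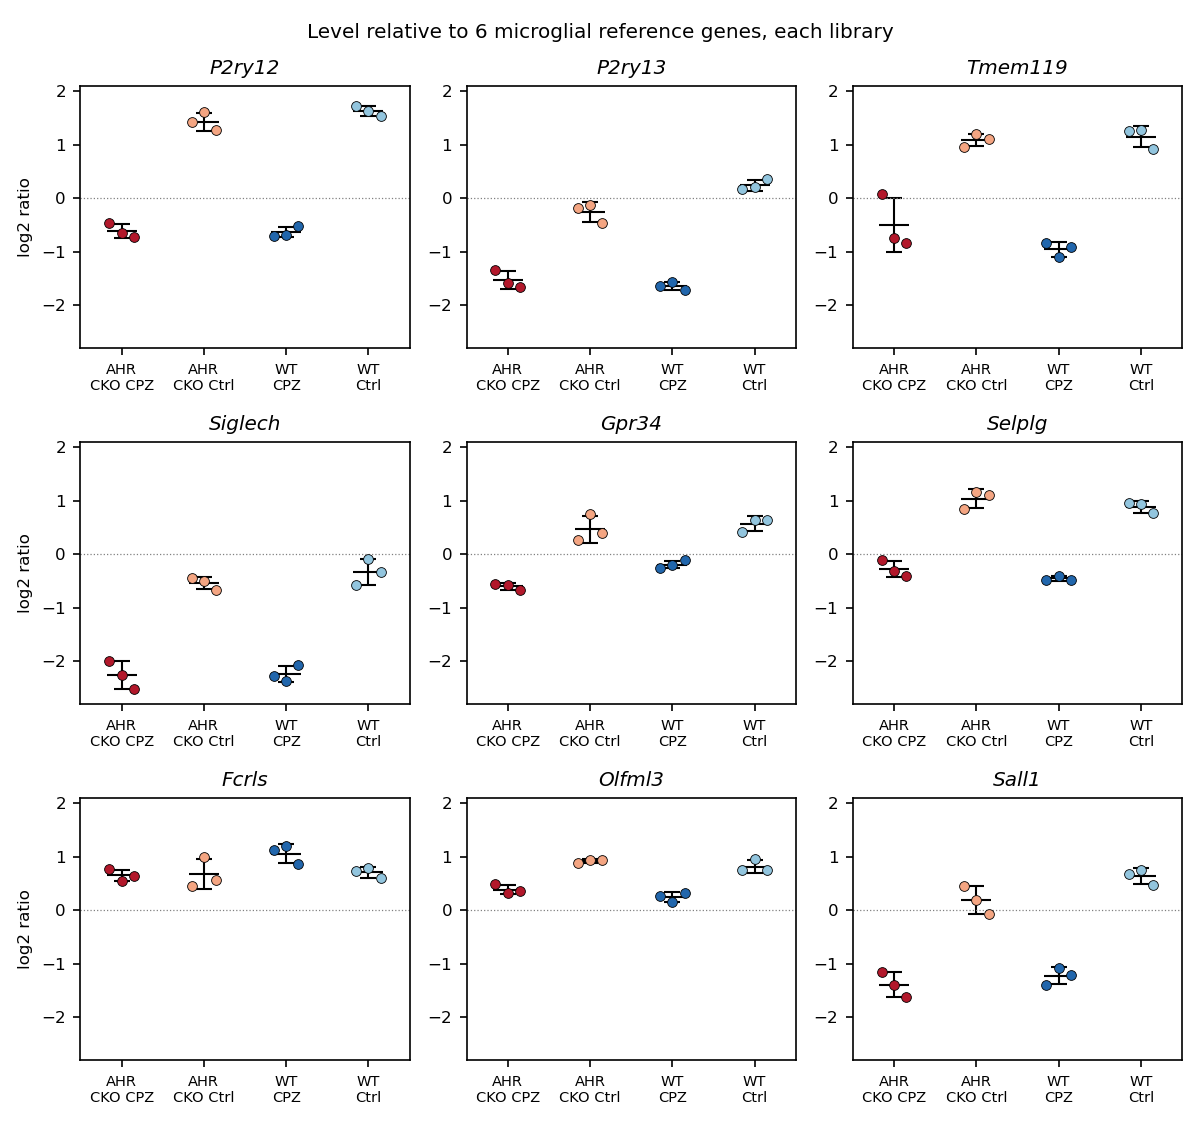
Log2 ratio of each gene to the geometric mean FPKM of 6 microglial reference genes in the same library (1 panel per gene), for AHR CKO CPZ, AHR CKO Ctrl, WT CPZ and WT Ctrl; points are libraries, and bars are the mean with its SD. P2ry12 lies between 1.27 and 1.73 in control libraries of either genotype and between -0.72 and -0.46 in cuprizone libraries, whereas Fcrls stays between 0.46 and 1.20 in all groups.

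Some other transcripts listed for homeostatic microglia also rose, and which cells of the tissue carried them was not tested. Of a list of 22, 21 were in the table and tested. Under cuprizone 10 of them rose and 1 fell in AHR CKO, with a median log2 change of 0.80, and 14 rose and none fell in WT, with a median of 1.14. The other 10 in AHR CKO and 7 in WT did not pass. Of all tested genes, 7.22% were called higher and 2.98% lower in AHR CKO, and 9.08% and 7.81% in WT (limma). These shares are also the background for the cuprizone counts of the lists that follow. Lag3, an immune checkpoint receptor, averaged 48.1 ± 8.04 FPKM in WT CPZ and 4.63 ± 0.312 in WT Ctrl (adjusted p = 6.37e-06). P2ry6, the UDP receptor that triggers uptake of debris, averaged 12.7 ± 1.66 in WT CPZ and 1.97 ± 0.402 in WT Ctrl (adjusted p = 1.00e-05). Pros1, a ligand of the engulfment receptor Mertk, averaged 18.8 ± 3.28 in WT CPZ and 5.67 ± 0.551 in WT Ctrl (adjusted p = 3.59e-05).

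The gene that fell in AHR CKO was Slc2a5, a fructose transporter, named here after its values were seen (-0.58, adjusted p = 0.0220). In AHR CKO CPZ against WT CPZ 6 of the 21 were lower and 15 did not pass, with a median log2 change of -0.51. Csf1r, which the reference also holds, was among the 6. Cx3cr1, the fractalkine receptor, named after its values were seen, stood at 1.16, 22.7 and 29.6 FPKM in AHR CKO CPZ, 1.05, 9.60 and 0.801 in AHR CKO Ctrl, 69.4, 49.4 and 58.7 in WT CPZ and 24.9, 24.4 and 22.6 in WT Ctrl. Single AHR CKO libraries were near 1 FPKM while others of the same group were far higher. Every AHR CKO library lay below every WT library of the same treatment, with ratios of mean FPKM of 0.301 under cuprizone and 0.159 in control tissue. In WT every cuprizone library lay above every control library, with a ratio of 2.47. No comparison passed the test, which takes 1 spread per gene from all 4 groups, the uneven AHR CKO groups included.

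Of 10 other transcription factors of the microglial programme, Spi1 of the reference among them, 6 rose with cuprizone in AHR CKO and 6 in WT, with a median log2 change of 0.71 in AHR CKO and 0.77 in WT. Irf8, an interferon regulatory factor that microglia need to develop, changed by 2.12 in AHR CKO (adjusted p = 9.75e-05) and by 2.54 in WT (adjusted p = 1.44e-05). Spi1, which encodes PU.1, changed by 1.63 in AHR CKO (adjusted p = 1.45e-04) and by 2.06 in WT (adjusted p = 1.58e-05). Cebpa changed by 1.40 and 1.40 and Runx1 by 0.86 and 1.09 in AHR CKO and WT in that order, and all of these passed. Sall1 had changes of 0.02 and 0.21, neither called. In AHR CKO CPZ against WT CPZ 1 of the 10 factors was lower, Maf, named here after its values were seen (-0.43, adjusted p = 0.0449).

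Of 20 genes of the disease-associated state, 19 rose with cuprizone in AHR CKO and 17 in WT, with medians of 1.74 and 2.42. Trem2, a lipid-sensing receptor, averaged 110.3 ± 20.3 FPKM in AHR CKO CPZ, 20.9 ± 2.79 in AHR CKO Ctrl, 140.6 ± 23.8 in WT CPZ and 18.9 ± 1.28 in WT Ctrl. Its log2 change was 2.33 in AHR CKO (adjusted p = 5.50e-06) and 2.82 in WT (adjusted p = 1.42e-06). The integrin Itgax changed by 3.46 and 4.05 and the lectin Clec7a by 4.19 and 4.60, all called. In AHR CKO CPZ against WT CPZ, 1 of the 20 was higher, 4 were lower and 15 did not pass.

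**Figure D4:**
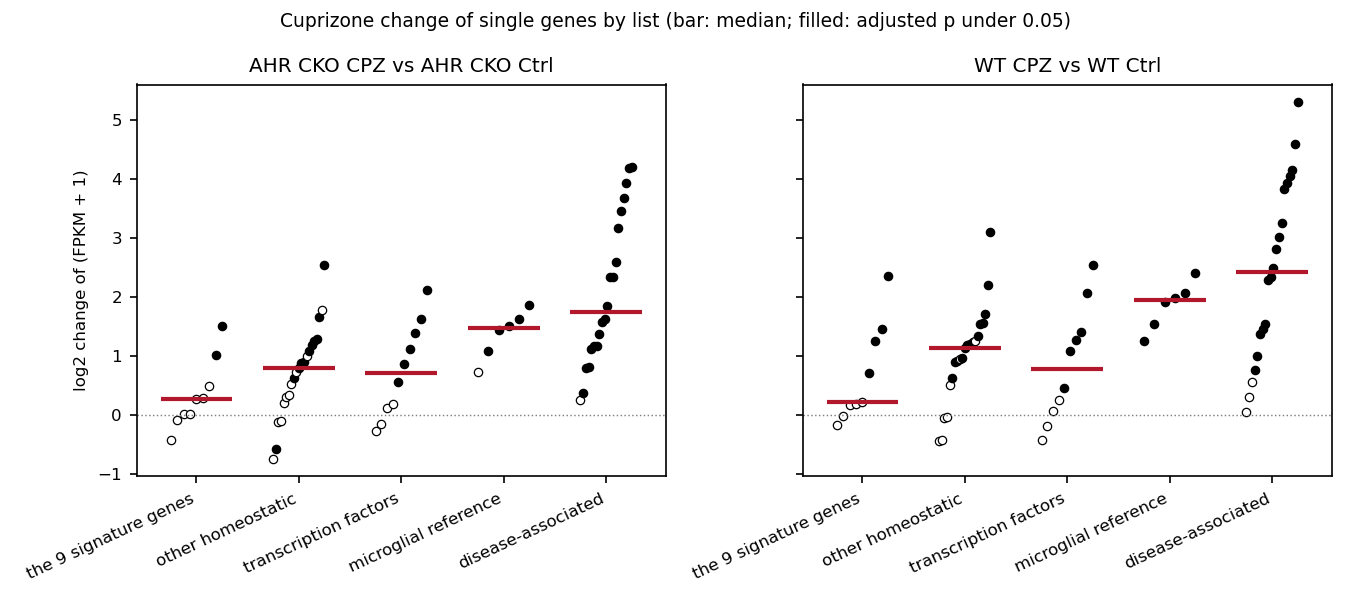
Log2 change of (FPKM + 1) under cuprizone of single genes (points, filled where the adjusted p is under 0.05) in 5 gene lists, in AHR CKO on the left and WT on the right; red bars are list medians. The median of the 9 genes is 0.27 in AHR CKO and 0.21 in WT, against 1.74 and 2.42 for the disease-associated genes and 1.47 and 1.95 for the microglial reference.

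Markers of other myeloid cells that could carry some of these transcripts were present at low levels, and their part in the results was not tested. Of 11 genes of macrophages at the brain borders, 10 were in the table and 3 passed the filter, Mrc1, Cd163 and Lyve1 not among them. The 10 genes summed to 7.80 to 10.1 FPKM in AHR CKO CPZ, 5.34 to 6.69 in AHR CKO Ctrl, 7.82 to 13.3 in WT CPZ and 3.998 to 6.24 in WT Ctrl. Stab1, a scavenger receptor, changed by 0.31 in AHR CKO (adjusted p = 0.245) and 0.54 in WT (adjusted p = 0.0314). Of 11 genes of blood monocytes and neutrophils, 5 were in the table and 2 passed the filter, with sums of 10.04 to 19.4 FPKM in AHR CKO CPZ, 5.98 to 20.3 in AHR CKO Ctrl, 5.59 to 12.1 in WT CPZ and 3.66 to 9.10 in WT Ctrl, most of it Ace, which vessels and choroid plexus also carry. None of these marker genes was at 0 in every library. The summed border genes were higher with cuprizone in both genotypes with no overlap, but single genes went both ways, named here after their values were seen. Cd163 had a ratio of mean FPKM of 0.933 in AHR CKO and 0.596 in WT. Mrc1 had 0.837 in AHR CKO and 1.17 in WT, and Pf4 had 0.572 and 1.62. The others of the 10 were above 1 in both genotypes, from 1.41 (Stab1) to 18.7 (Ms4a7) in AHR CKO. In WT they ran from 1.09 (F13a1) to 19.8 (Siglec1). Siglec1 had 14.9 in AHR CKO, and its control means were low, 0.068 FPKM in AHR CKO Ctrl and 0.047 in WT Ctrl. Of the 3 border genes tested, 1 passed in each genotype, Ms4a7 in AHR CKO (1.06, adjusted p = 0.0131), named after its values were seen, and Stab1 in WT. Of 8 oligodendrocyte genes 7 fell in AHR CKO and all 8 in WT, with median log2 changes of -1.12 in AHR CKO and -2.18 in WT. FPKM are shares of a library's total, and the part of this loss in the other values was not tested. In AHR CKO CPZ against WT CPZ, where 3 of the 9 genes were lower, markers of other cells were called as well, named here after their values were seen. Of 8 oligodendrocyte genes 2 were higher, Opalin (1.89) and Mag (0.58), and of 7 neuronal genes 1 was higher, Tubb3 (0.64). Of 6 astrocyte genes 1 was lower, Slc1a2 (-0.85), and of 7 endothelial and mural genes 2 were lower, Flt1 (-0.56) and Rgs5 (-0.83). Their part in the results was not tested.

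The order of the 9 genes by level differed between treatments. In AHR CKO CPZ Fcrls (36.5 ± 10.002 FPKM) and Olfml3 (30.4 ± 8.24) came first, and in WT CPZ Fcrls (70.99 ± 17.6), Olfml3 (40.6 ± 10.2) and Gpr34 (29.6 ± 5.83). In AHR CKO Ctrl P2ry12 came first (20.2 ± 1.07), followed by Tmem119 (15.9 ± 0.861) and Selplg (15.4 ± 1.53). The first 3 of WT Ctrl were likewise P2ry12 (24.5 ± 2.36), Tmem119 (17.5 ± 2.55) and Selplg (14.5 ± 1.35). Tmem119 and Selplg overlapped in both control groups. Siglech was last in every group, at 4.79 ± 0.738 FPKM in AHR CKO CPZ, 5.15 ± 0.474 in AHR CKO Ctrl, 7.23 ± 1.75 in WT CPZ and 6.29 ± 0.887 in WT Ctrl.

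The genes with the most similar profiles were found by the root mean square difference of log2 values over the 12 libraries, each gene centred on its own mean. Among the 9 themselves, the closest pair was P2ry13 and Sall1 (0.169), followed by Sall1 and Siglech (0.174), and the most distant was Fcrls and P2ry12 (1.13). Over all tested genes, the closest to Fcrls were Ctsd (0.143), a lysosomal protease, Grn (0.18), which encodes progranulin, and Fyb (0.191), an adaptor of immune cells. Closest to Olfml3 were Cmklr1 (0.1), the chemerin receptor, Ncf1 (0.1), a subunit of the phagocyte oxidase, and Hk2 (0.116), a hexokinase. Closest to Selplg were Ifngr2 (0.102), a chain of the interferon-gamma receptor, Stk10 (0.111) and Tnfrsf11a (0.114), and to Gpr34 they were Dock8 (0.137), a leukocyte exchange factor, 4632428N05Rik (0.168) and Pdia4 (0.178).

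For the 5 genes with no called cuprizone change, the closest were Prickle2 (0.0944), Tmem170b (0.109) and Zfp397 (0.117) for P2ry12, Ptbp3 (0.0888), Cpne3 (0.0943) and Sox6 (0.107) for P2ry13, and Zfp229 (0.125), Dph1 (0.129) and Tmem18 (0.13) for Tmem119. For Siglech they were Akap10 (0.0923), Trps1 (0.106) and Arsb (0.107), and for Sall1 they were Ccdc93 (0.0972), Ttc37 (0.099) and Sft2d2 (0.105). The 3 closest genes of P2ry13 and the 3 of Sall1 were, like Sall1 itself, lower in every AHR CKO library than in every WT library of the same treatment: Ptbp3, for P2ry13, had a ratio of mean FPKM of 0.650 under cuprizone and 0.727 in control tissue, and Ccdc93, for Sall1, had 0.603 and 0.759. These genes were picked for likeness over the same libraries, so the shared split follows in part from that choice. The share of all tested genes with such a split was not computed. Of all tested genes, 10.8% were called lower in AHR CKO under cuprizone and 4.76% in control tissue (limma).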

How the data were processed

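Per the labels' protocols, total RNA was extracted from corpus callosum and libraries were prepared by the SMARTER mRNA-Seq chemistry, and the submitters' processing notes name the build GRCm38 (mm10). The authors deposited FPKM values for 15584 genes in 12 libraries. The sources used here give neither the aligner nor the quantifier, nor whether strand was used, and FPKM hold no counts, so a count model was not used. Genes with an FPKM of at least 1 in at least 3 libraries (13759) were tested as log2(FPKM + 1), which understates changes of low genes, with limma 3.58.1 in R 4.3.3 (4 groups in 1 model, a trend in the prior variance), and p-values were adjusted by Benjamini-Hochberg over all tested genes in each of 5 comparisons, with a threshold of 0.05. The script was tested on simulated data. Fold changes called ratios of means use FPKM itself. Sequences come from RefSeq (GRCm38.p6) and gene positions from GENCODE M21. The genes, the gene lists and the naming rule were chosen with earlier results of these data known. Named were all 9 genes, per list up to 4 genes with the smallest adjusted p in WT (or the 2 highest where none passed), the 3 closest profiles per gene, overlapping genes, the 6 reference genes and Ahr, and any others are said to be chosen later. A result that this rule would name is not reported here. Of lists named by none of these, neuronal and endothelial markers had no called gene between cuprizone and control in either genotype, and 4 of 6 astrocyte genes rose in AHR CKO and 4 of 6 in WT. Alternatives were other pseudocounts, filters, scalings and variance settings, a replicate block and omitted libraries. The length and GC correction and the omissions for ratios to the reference were added after seeing the data.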

Additional observations from a re-analysis of the deposited data

How the results depend on the processing

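The 2 calls in AHR CKO and the 4 in WT under cuprizone held under every alternative run, whichever library was left out; the counts over omissions were 2 to 3 in AHR CKO and 4 to 4 in WT. Of AHR CKO CPZ against WT CPZ, Fcrls and Gpr34 held under every alternative; the count of 3 became 5 with a mean FPKM of at least 5, 5 under TPM and 5 under median-of-ratios scaling, and 2 to 6 when libraries were left out. In AHR CKO Ctrl against WT Ctrl it was 0 to 2 over omissions, and for the difference of cuprizone effects 0 to 0. The libraries showed no sign of pairing by replicate number, although with 3 libraries a group such a check is weak. Deviations of same-numbered libraries correlated with r from -0.343 to 0.25 in 18 pairs, and those of other libraries from -0.396 to 0.44 in 36 pairs. With the number as a replicate block the counts were 2 in AHR CKO, 4 in WT, 3 in AHR CKO CPZ against WT CPZ, 0 in control tissue and 0 for the difference of effects, as without the block. TPM moved the median of all genes in AHR CKO CPZ against WT CPZ by -0.13 and the share of higher genes among those called there to 21.2% (45.8% as deposited); in AHR CKO under cuprizone that share was 59% under TPM and 60.7% under quantile normalization (70.8% as deposited), and in control tissue 33.3% under quantile normalization (23% as deposited). After the length and GC correction 985 genes were called in AHR CKO CPZ against WT CPZ, against 2747 without it; the cause was not tested. The median log2 difference of the 9 genes relative to the microglial reference became -0.82 with Csf1r alone and -1.91 with C1qa, C1qb and C1qc in AHR CKO, and -1.34 and -2.32 in WT; in AHR CKO CPZ against WT CPZ it became 0.18 and -0.28, and in control tissue 0.083 and -0.27, so both genotype medians changed sign with the reference. Over omitted libraries these medians ran from -1.41 to -1.25 in AHR CKO, -1.85 to -1.78 in WT, -0.05 to 0.11 in AHR CKO CPZ against WT CPZ and -0.23 to 0.00 in control tissue. Genes with no called change also changed sign: under TPM Tmem119 (-0.048) and Sall1 (-0.047) in AHR CKO under cuprizone, Olfml3 in control tissue (-0.032) and Tmem119 in the difference of effects (-0.039); under quantile normalization Sall1 in AHR CKO (-0.0047) and Tmem119 in WT (0.018); and after the length and GC correction Tmem119 in AHR CKO (-0.12) and in the difference of effects (-0.044). Over omitted libraries Tmem119 ran from -0.018 to 0.072 in AHR CKO, -0.22 to 0.20 in WT, -0.31 to 0.11 in AHR CKO CPZ against WT CPZ and -0.18 to 0.24 in the difference of effects. In AHR CKO under cuprizone Siglech ran from -0.15 to 0.017 and Sall1 from -0.066 to 0.16, Olfml3 in control tissue from -0.021 to 0.074, and P2ry13 in the difference of effects from -0.019 to 0.26. The other 933 values of single genes kept their direction and their side of the threshold, 18 passed it only under an alternative, and 2, both of Sall1, lost it. With 3 libraries a group and no counts, the depth behind a value is known only roughly, and changes smaller than the intervals given are not detectable.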

Other observations

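Genes that make or break down the ligands of P2ry12 and P2ry13, or bind related ones, moved in both directions. Of 10 such genes, P2ry6 and Entpd1 of the homeostatic list among them, 3 rose with cuprizone in AHR CKO, and 4 rose and 2 fell in WT, with median log2 changes of 0.16 in AHR CKO and 0.23 in WT. P2rx4, a channel opened by ATP, averaged 11.5 ± 1.78 FPKM in AHR CKO CPZ, 6.95 ± 0.540 in AHR CKO Ctrl, 13.6 ± 0.974 in WT CPZ and 7.41 ± 1.47 in WT Ctrl, and rose in both genotypes (adjusted p = 0.00989 in AHR CKO and 0.00123 in WT, limma). Nt5e, the enzyme that turns AMP into adenosine, averaged 2.39 ± 0.342 FPKM in AHR CKO CPZ, 2.95 ± 0.937 in AHR CKO Ctrl, 1.36 ± 0.123 in WT CPZ and 3.43 ± 1.18 in WT Ctrl and fell in WT (-0.88, adjusted p = 0.00870), while its change in AHR CKO did not pass (-0.20, adjusted p = 0.587). P2ry14, a UDP-sugar receptor next to P2ry13 on chromosome 3, also fell in WT (-0.46, adjusted p = 0.0226) and was higher in AHR CKO CPZ than in WT CPZ (0.51, adjusted p = 0.0176).

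Of 10 genes that make, release or relay TGF-beta, which keeps microglia homeostatic, Tgfbr1 and Smad3 of the earlier lists among them, 3 rose with cuprizone in AHR CKO, and 4 rose and 1 fell in WT. Tgfb1, the ligand, averaged 14.7 ± 4.66 FPKM in AHR CKO CPZ, 5.28 ± 0.589 in AHR CKO Ctrl, 16.9 ± 1.77 in WT CPZ and 4.51 ± 0.426 in WT Ctrl (adjusted p = 6.13e-04 in AHR CKO and 4.47e-05 in WT). The receptor chains Tgfbr1 (0.90 in AHR CKO and 1.14 in WT) and Tgfbr2 (0.94 and 1.37) also rose in both genotypes. Smad7, an inhibitor of the pathway, fell in WT (-0.66, adjusted p = 0.00361). Itgb8, an integrin chain that releases active TGF-beta, was named after its values were seen: it averaged 4.22 ± 1.81 FPKM in AHR CKO CPZ, 4.16 ± 1.47 in AHR CKO Ctrl, 10.98 ± 1.90 in WT CPZ and 9.01 ± 0.867 in WT Ctrl, and was lower in AHR CKO under cuprizone (adjusted p = 0.00899) and in control tissue (adjusted p = 0.0395).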
